A study of Rattus norvegicus with 6 samples.

Results

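The enzymes that modify collagen on lysine and proline and join its chains, with the chaperone that escorts it, were followed across 6 arrays of rat bone marrow stromal cells. The set held 10 genes, chosen by name among the non-control spots of the array: the lysyl oxidases Lox, Loxl1, Loxl2, Loxl3 and Loxl4, the lysyl hydroxylases Plod1, Plod2 and Plod3, the prolyl hydroxylase subunit P4ha2 and the collagen chaperone Serpinh1. They were measured by 15 of the 45598 probes, on 65 spots of each array, and were 10 of the 19704 genes tested. The 10 genes passed the filter on dim probes, and each of their probes was well above background on all 6 arrays with no saturated spot. The rule that picked them, by name, uses no measured value, though the set was chosen with earlier results of these data known.

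Total RNA was labelled with Cy3 and hybridised to one-colour Agilent expression arrays, 1 array for each culture. Of the cultures, 3 stood on titanium whose surface was modified with tantalum (Ta) and 3 on titanium left simple (Ti), all for 7 days. The cells (rBMSCs) came from tibia marrow; such adherent stromal cells can turn into osteoblasts, chondrocytes or adipocytes. The series describes the cultures of a group as independent experiments, and gives no genotype, strain or age of the animals and no agent other than the surface.

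Fibrillar collagen is hydroxylated inside the endoplasmic reticulum while its chains are still unfolded. Prolyl 4-hydroxylase makes the hydroxyproline that keeps the triple helix stable at body temperature, lysyl hydroxylases make the hydroxylysine that carries sugars and later crosslinks, and Serpinh1 (also called HSP47) binds the folded helix on its way out of the cell. After secretion, the copper-dependent lysyl oxidases turn lysine and hydroxylysine side chains into aldehydes, which then react to join neighbouring molecules. In bone, these crosslinks give the matrix its tensile strength before and after mineral is laid down.

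Because the lysyl oxidases are related in sequence, the probes of 4 of them are shown here, each 60 bases long and read 5′ to 3′ from the deposited array files. The Loxl4 probes are not shown, and the main Lox values below come from another probe, A_44_P1152134.
Lox probe A_64_P038414: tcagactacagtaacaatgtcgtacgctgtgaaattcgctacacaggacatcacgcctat
Loxl1 probe A_43_P19907: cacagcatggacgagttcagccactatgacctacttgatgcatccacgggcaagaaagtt
Loxl2 probe A_44_P105225: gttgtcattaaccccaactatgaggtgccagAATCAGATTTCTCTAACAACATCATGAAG
Loxl3 probe A_64_P029142: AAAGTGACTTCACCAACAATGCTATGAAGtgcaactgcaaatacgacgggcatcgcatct
The capitals mark the stretch where the Loxl2 and Loxl3 probes overlap when laid beside each other without gaps: 29 bases, of which 19 are the same. Over all 97 pairs of probes of different genes in the set, the longest run of identical bases was 8, so no probe repeated a stretch of another gene's probe longer than that. In the RefSeq table of the GRCr8 assembly, Lox is on chromosome 18, Loxl1 on chromosome 8, Loxl2 on chromosome 15 and Loxl3 on chromosome 4. The array's design places these probes in annotated transcripts, starting at base 1464 for Lox, 1771 for Loxl1, 2261 for Loxl2 and 2253 for Loxl3. Whether these positions are coding or untranslated was not checked. Probes were compared with probes only, which cannot show whether a probe matches the transcript of a related gene.

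The signal of each array, its 75th percentile over 58717 non-control spots, lay between 1848 and 2388 before scaling, and 62.7% to 65.9% of those spots were well above background. The 6 arrays shared 1 slide and 1 scan. Slide row 1 held all 3 Ta arrays with Ti replicate 1, and row 2 held the remaining Ti arrays. Ti replicate 2 was the only array whose extraction the scanner's quality report put down for evaluation. Values below are log2 signals scaled to the 75th percentile, and a difference is Ta minus Ti. The fit was limma's over all genes, two-sided, and a gene was called at a Benjamini-Hochberg adjusted p under 0.05. It called 819 genes, 529 higher and 290 lower on Ta. With scaling to the median spot it called 782, 421 higher and 361 lower.

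None of the collagen genes of the set passed that test: 0 of 10 genes, against 4.16% of all genes tested, and 0 of 15 probes, against 4.31% of all probes tested, with 5 of 15 probes at an unadjusted p under 0.05, against 29.4% of all probes. At an unadjusted p under 0.05 there were 3 of 10, all lower on Ta (Loxl1, Loxl4 and Serpinh1), against 30% of all genes in either direction and 13.2% in the lower direction. The Ta and Ti arrays did not overlap for 5 of 10 genes, against 35.8% of all genes. Of these, 4 lay lower on Ta (Loxl1, Loxl4, Plod2 and Serpinh1), against 16.3% of all genes, and 1 lay higher (Lox), against 19.5%. Differences were below 0 for 8 of 10 genes, against 46.2% of all genes, with a median of -0.18 against 0.03 for all genes. Cultures of a group differed by a pooled standard deviation of 0.12 at the median of the 10 genes, against 0.16 at the median of all genes.

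**Figure D1:**
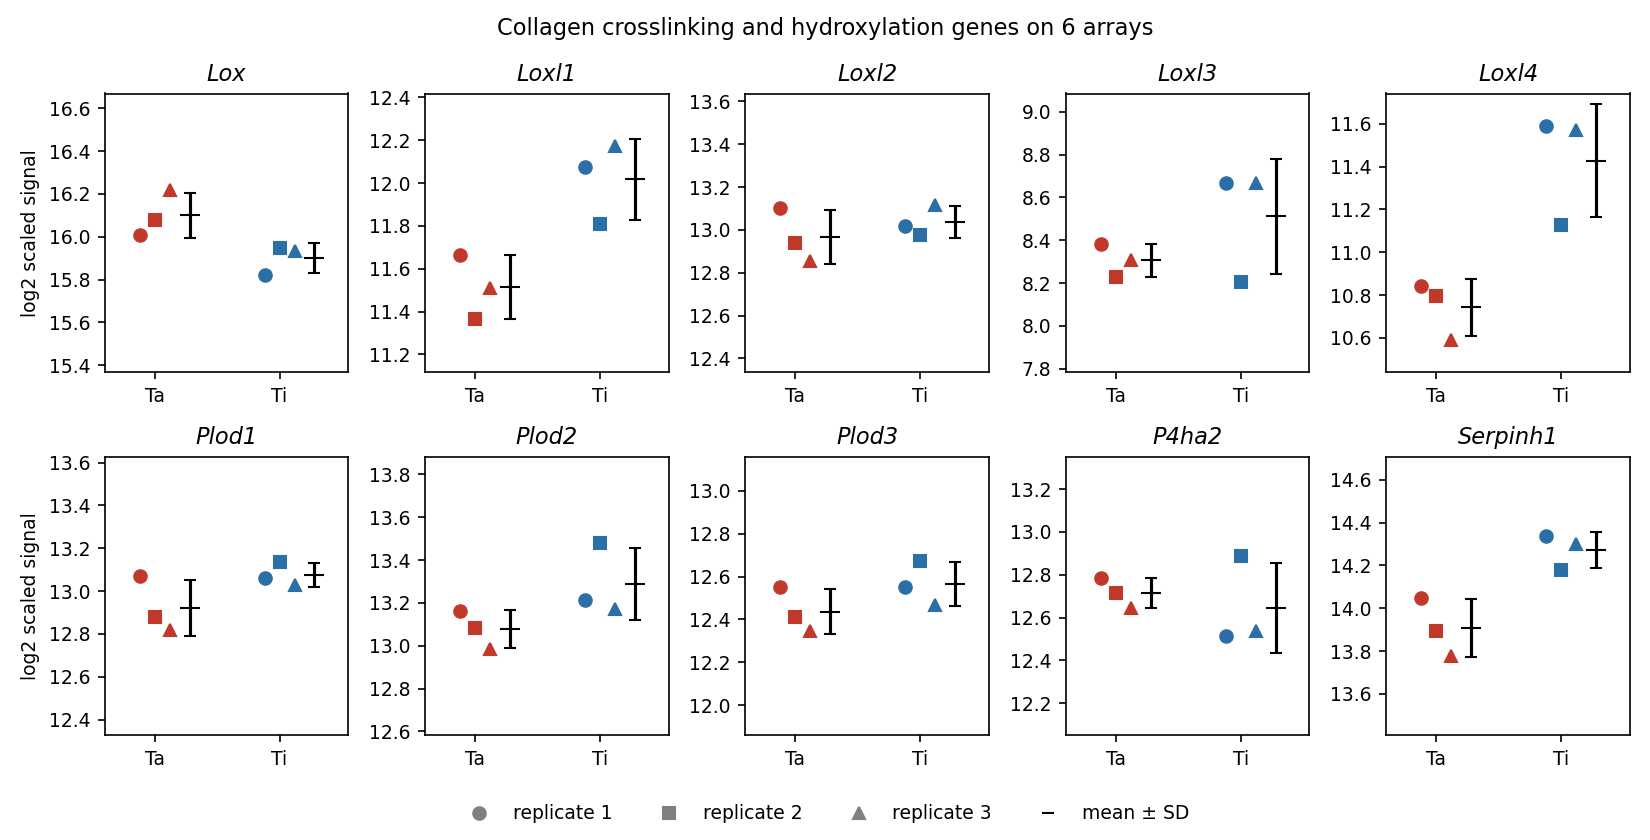
Log2 scaled signal of the 10 genes, by the brightest probe of each, on the 3 Ta arrays (red, left in each panel) and the 3 Ti arrays (blue, right). Marker shapes give the replicate, bars the mean ± SD, and every panel spans the same log2 range. Lox lies higher on all Ta arrays, Loxl1, Loxl4, Plod2 and Serpinh1 lie lower, and the groups overlap in the other panels.

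Lox, which oxidises lysine in collagen and elastin and is the founding member of its family, read 16.01, 16.08 and 16.22 on Ta replicates 1, 2 and 3, against 15.82, 15.95 and 15.93 on the Ti replicates. Every Ta culture lay above every Ti culture, with a gap between the nearest arrays smaller than the range within Ta. The means were 16.10 ± 0.11 on Ta and 15.90 ± 0.07 on Ti (SD, n = 3 each). The log2 difference was 0.20 (SE 0.09, 95% interval -0.02 to 0.42, adjusted p = 0.198), a ratio of 1.15, and it did not pass the test. The probe behind these values, A_44_P1152134, sat on 10 spots of each array. Those spots scattered by a standard deviation of 0.065 within an array, or 0.021 for their mean, below the 0.11 and 0.07 between the Ta and the Ti cultures.

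The other Lox probes read the same direction. They gave differences of 0.13 (A_42_P585695), 0.17 (A_64_P038414, shown above) and 0.16 (A_44_P1082099), with adjusted p over all probes of 0.335, 0.276 and 0.271. The Ta and Ti arrays did not overlap for any of the 4 Lox probes, but for these other probes the gaps were narrow. For A_42_P585695 the nearest arrays were Ta replicate 1 at 14.676 and Ti replicate 3 at 14.675, almost a tie. Ta replicate 3 and Ti replicate 3 were nearest for A_44_P1082099 (13.32 and 13.30) and for A_64_P038414 (13.45 and 13.42). The probes did not rank the Ta cultures alike. Ta replicate 3 was highest by A_44_P1152134 and A_42_P585695, which start at bases 2108 and 4136 of their annotated transcript, and Ta replicate 2 was highest by A_64_P038414 and A_44_P1082099, which start at bases 1464 and 1665 of another.

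Among the 19704 tested genes, those with a RefSeq symbol whose centred values over the 6 arrays lay closest to those of Lox were Smpd1, a lysosomal sphingomyelinase, Skp1, a subunit of SCF ubiquitin ligases, and Gdpgp1. Their root mean square distances from Lox were 0.016, 0.016 and 0.019 on the log2 scale. Their differences were 0.21, 0.18 and 0.20, with adjusted p of 0.186, 0.229 and 0.211. The choice by closeness on these same arrays fixes differences near that of Lox, so they are no separate result.

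Loxl1, the family member best known for elastic fibre maintenance, read 11.67, 11.37 and 11.51 on Ta replicates 1, 2 and 3, against 12.08, 11.81 and 12.17 on the Ti replicates. All Ta cultures lay below all Ti cultures. The log2 difference was -0.50 (SE 0.13, 95% interval -0.82 to -0.19, adjusted p = 0.0731), a ratio of 0.705 from means of 11.51 ± 0.15 on Ta and 12.02 ± 0.19 on Ti (SD, n = 3 each). It missed the threshold with all arrays and passed without Ta replicate 1 (difference -0.58, adjusted p = 0.0488) and without Ti replicate 2 (-0.61, adjusted p = 0.047). Those 2 cultures were, for this gene, the highest of Ta and the lowest of Ti.

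Loxl4, a lysyl oxidase with scavenger receptor domains in front of its catalytic domain, had the largest difference of the 10 genes in this fit. Its brighter probe read 10.84, 10.79 and 10.59 on Ta replicates 1, 2 and 3, against 11.59, 11.13 and 11.57 on the Ti replicates. The Ta cultures lay close together and below every Ti culture, of which Ti replicate 2 was the lowest. The log2 difference was -0.69 (SE 0.15, 95% interval -1.06 to -0.32, adjusted p = 0.0594), a ratio of 0.622. Without Ti replicate 2 it was -0.84 (adjusted p = 0.0314), and among genes well above background on all 6 arrays the unchanged difference had an adjusted p of 0.0462.

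The second Loxl4 probe, A_42_P463602, read 7.66, 7.51 and 7.47 on Ta replicates 1, 2 and 3, against 7.86, 7.82 and 7.99 on the Ti replicates. Its groups did not overlap either, and its difference was -0.34 (95% interval -0.57 to -0.11, adjusted p over all probes = 0.0816). The probes of Loxl4 thus had the same direction and different sizes. Each sat on 1 spot of an array, so the scatter between spots is unknown for Loxl4, as it is for Loxl1, Loxl2 and Loxl3.

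Loxl2 and Loxl3 share the scavenger receptor layout of Loxl4. Loxl2, which crosslinks collagen IV of basement membranes, read 13.10, 12.94 and 12.86 on Ta replicates 1, 2 and 3, against 13.02, 12.97 and 13.12 on the Ti replicates. The groups overlapped, and the difference was -0.07 (SE 0.10, 95% interval -0.30 to 0.17, adjusted p = 0.665). Loxl3 read 8.38, 8.23 and 8.31 on the Ta replicates, against 8.67, 8.20 and 8.67 on the Ti replicates. Here Ti replicate 2 lay below all Ta cultures and the other Ti cultures above them, and the difference was -0.21 (SE 0.15, 95% interval -0.56 to 0.15, adjusted p = 0.39). Without Ti replicate 2 the Loxl3 difference was -0.36, and without Ti replicate 1 or Ti replicate 3 it was -0.13. The Loxl2 difference ran from -0.14 without Ta replicate 1 to -0.01 without Ta replicate 3, and was -0.03 without Ti replicate 3.

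The measured differences of the lysyl oxidases did not share a sign, though none passed the test: Lox lay above 0 and the 4 Lox-like genes below. The signal of each Lox-like gene was set beside that of Lox within the same array and this distance compared between groups, a comparison chosen after the values were seen. Relative to Lox, Loxl1 differed by -0.70 and Loxl4 by -0.89 between Ta and Ti, with no overlap between the groups. Loxl2 differed by -0.27 and Loxl3 by -0.41, with overlap. The exact two-sided permutation p was 0.1 for Loxl1 and Loxl4, the smallest that 3 against 3 arrays allow, and 0.2 for Loxl2 and Loxl3; adjusted over the 4 comparisons it was 0.2 for each. No comparison of this size can reach 0.05, so these distances are a description.

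**Figure D2:**
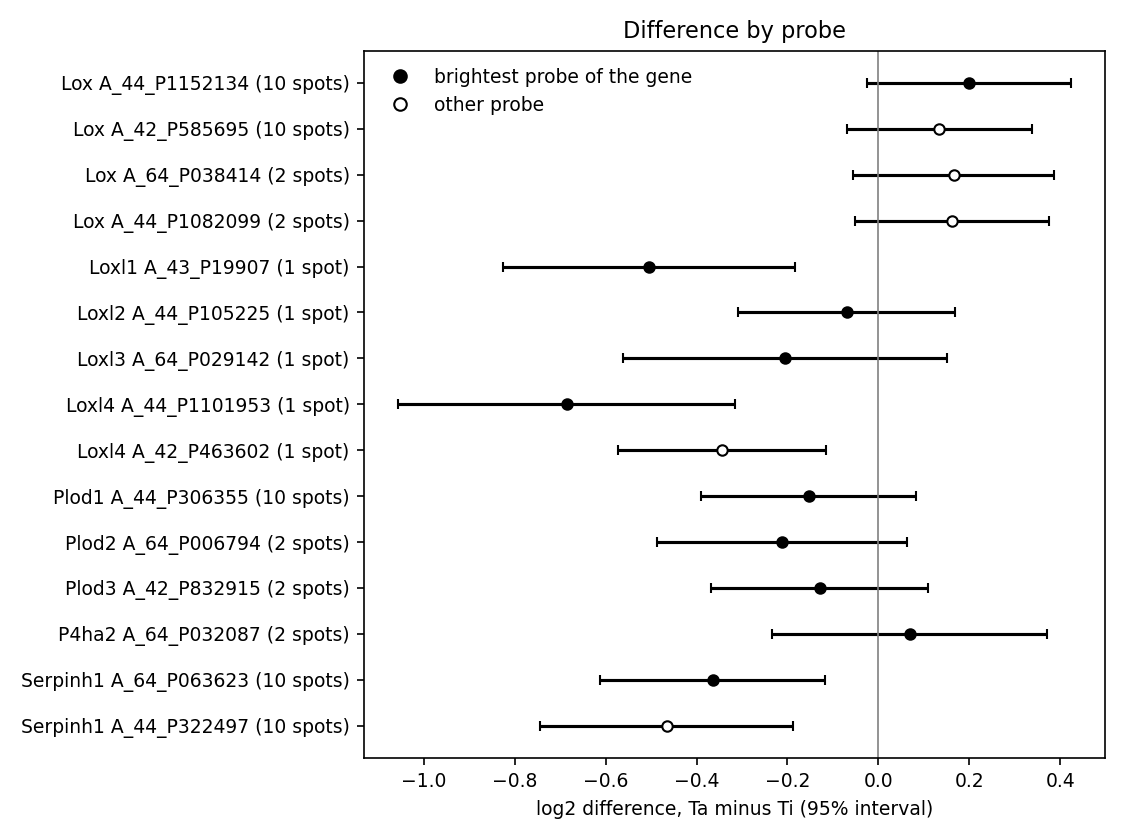
Log2 difference, Ta minus Ti, of each of the 15 probes with its 95% interval from the fit over all probes; filled points are the brightest probe of a gene, open points its other probes, and the number of spots per array follows each probe's name. The 4 Lox probes lie between 0.13 and 0.20 with intervals that include 0, and the probes of Loxl1, Loxl4 and Serpinh1 lie between -0.69 and -0.34 with intervals below 0 that carry no adjustment for the number of probes.

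The lysyl hydroxylases had small differences, each with an interval that includes 0. Plod1, which hydroxylates lysines in the collagen helix, read 13.07, 12.88 and 12.82 on Ta replicates 1, 2 and 3, against 13.06, 13.14 and 13.03 on the Ti replicates. Ta replicate 1 lay among the Ti cultures and the other Ta cultures below them, and the difference was -0.15 (SE 0.10, 95% interval -0.39 to 0.08, adjusted p = 0.328). Plod2, which hydroxylates the lysines of the telopeptides and so directs the crosslinks typical of bone, read 13.16, 13.08 and 12.98 on Ta, against 13.21, 13.48 and 13.17 on Ti. The groups did not overlap, but Ta replicate 1 and Ti replicate 3 nearly touched, and the difference was -0.21 (SE 0.11, 95% interval -0.48 to 0.06, adjusted p = 0.258). Plod3, which also transfers sugars to hydroxylysine, read 12.55, 12.41 and 12.34 on Ta, against 12.55, 12.67 and 12.47 on Ti. These groups overlapped, and the difference was -0.13 (SE 0.10, 95% interval -0.36 to 0.11, adjusted p = 0.412). With 1 array left out, the difference ran from -0.23 (without Ta replicate 1) to -0.10 (without Ta replicate 3) for Plod1. It ran from -0.27 (without Ti replicate 3) to -0.12 (without Ti replicate 2) for Plod2, and from -0.19 (without Ta replicate 1) to -0.07 (without Ti replicate 2) for Plod3.

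P4ha2, a catalytic subunit of prolyl 4-hydroxylase, read 12.78, 12.72 and 12.64 on Ta replicates 1, 2 and 3, against 12.51, 12.89 and 12.54 on the Ti replicates. Ti replicate 2 was the highest of the 6 arrays and the other Ti replicates the lowest. The difference was 0.07 (SE 0.12, 95% interval -0.23 to 0.37, adjusted p = 0.746). Leaving out 1 array at a time gave 0.19 without Ti replicate 2 (adjusted p = 0.186), but 0.002 and 0.013 when Ti replicate 1 or 3 was dropped. Dropping a Ta array gave 0.034, 0.068 and 0.10 for Ta replicates 1, 2 and 3.

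Serpinh1, which recognises folded procollagen, read 14.05, 13.90 and 13.78 on Ta replicates 1, 2 and 3, against 14.34, 14.18 and 14.30 on the Ti replicates by its brighter probe. All Ta cultures lay below all Ti cultures. The log2 difference was -0.36 (SE 0.10, 95% interval -0.61 to -0.12, adjusted p = 0.0807), a ratio of 0.777. The other probe, A_44_P322497, read 13.10, 12.91 and 12.77 on Ta, against 13.48, 13.28 and 13.42 on Ti. It put the arrays in the same order and gave -0.47 (95% interval -0.74 to -0.19, adjusted p over all probes = 0.0677). Each probe sat on 10 spots, which scattered by a standard deviation of 0.046 and 0.065 within an array, less than the 0.13 and 0.16 between the Ta cultures. Without Ta replicate 1, the difference by the brighter probe was -0.43 (adjusted p = 0.0409).

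By the brightest probe of each gene, several arrays kept a like place across the set. Ta replicate 1 was the highest of the Ta arrays for 9 of 10 genes, the exception being Lox, for which it was the lowest; over all genes it was the highest for 35.7% and the lowest for 42.1%. Ta replicate 3 was the lowest for 7 of 10 genes and the highest for 1, Lox, against 30.4% and 40.7% of all genes, and for Loxl4 it was the Ta array that stood farthest from the other Ta arrays. By these probes Ti replicate 2, the array marked for evaluation, was never the middle one of the Ti arrays. It was the lowest for Loxl1, Loxl2, Loxl3, Loxl4 and Serpinh1 and the highest for Lox, Plod1, Plod2, Plod3 and P4ha2, that is for 5 of 10 each, where over all genes it was the lowest for 42.3% and the highest for 36.9%. The place of an array for Lox depended on the probe. By A_64_P038414 and A_44_P1082099, Ti replicate 2 was the middle Ti array and Ta replicate 3 the lowest Ta array. By A_42_P585695, Ti replicate 2 was the lowest Ti array. Without Ta replicate 1, 2 of the 10 genes passed (Loxl1 and Serpinh1), beside 16.3% of all genes. In the fit over all probes, 3 of 15 probes passed, beside 15.5% of all probes. The only Loxl1 probe was not among them (adjusted p over all probes = 0.0507), and the Loxl4 probe A_42_P463602 was (0.0487). Without Ti replicate 2, 2 genes passed (Loxl1 and Loxl4) with 2 of 15 probes, beside 8.09% of all genes and 9.5% of all probes. Leaving out any other array gave 0 calls among the 10 and 0 among all genes. Fitted with a term for slide row, which leaves Ti replicate 1 as the counterpart of the Ta arrays in row 1, differences were 0.28 for Lox, -0.56 for Loxl1, -0.85 for Loxl4 and -0.43 for Serpinh1. That fit called 0 of 19704 genes, of which 3851 had an unadjusted p under 0.05. Row 2 held Ti arrays alone and gives no difference of its own.

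The count of calls among the 10 genes depended on the variance model, the background correction and the filter on dim probes. With normexp background correction, 3 of 10 genes and 4 of 15 probes passed, beside 13.1% of all genes and 13% of all probes. With trend and robust variance settings, 3 genes and 4 probes passed, beside 10.7% of all genes and 10.4% of all probes. In both cases the genes were Loxl1, Loxl4 and Serpinh1. Among features well above background on all 6 arrays, 1 gene (Loxl4) and 1 probe passed, beside 6.62% and 6.64%. With array weights, 6 genes and 7 probes passed, beside 51.8% of all genes and 50.7% of all probes, which is near the background.

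**Figure D3:**
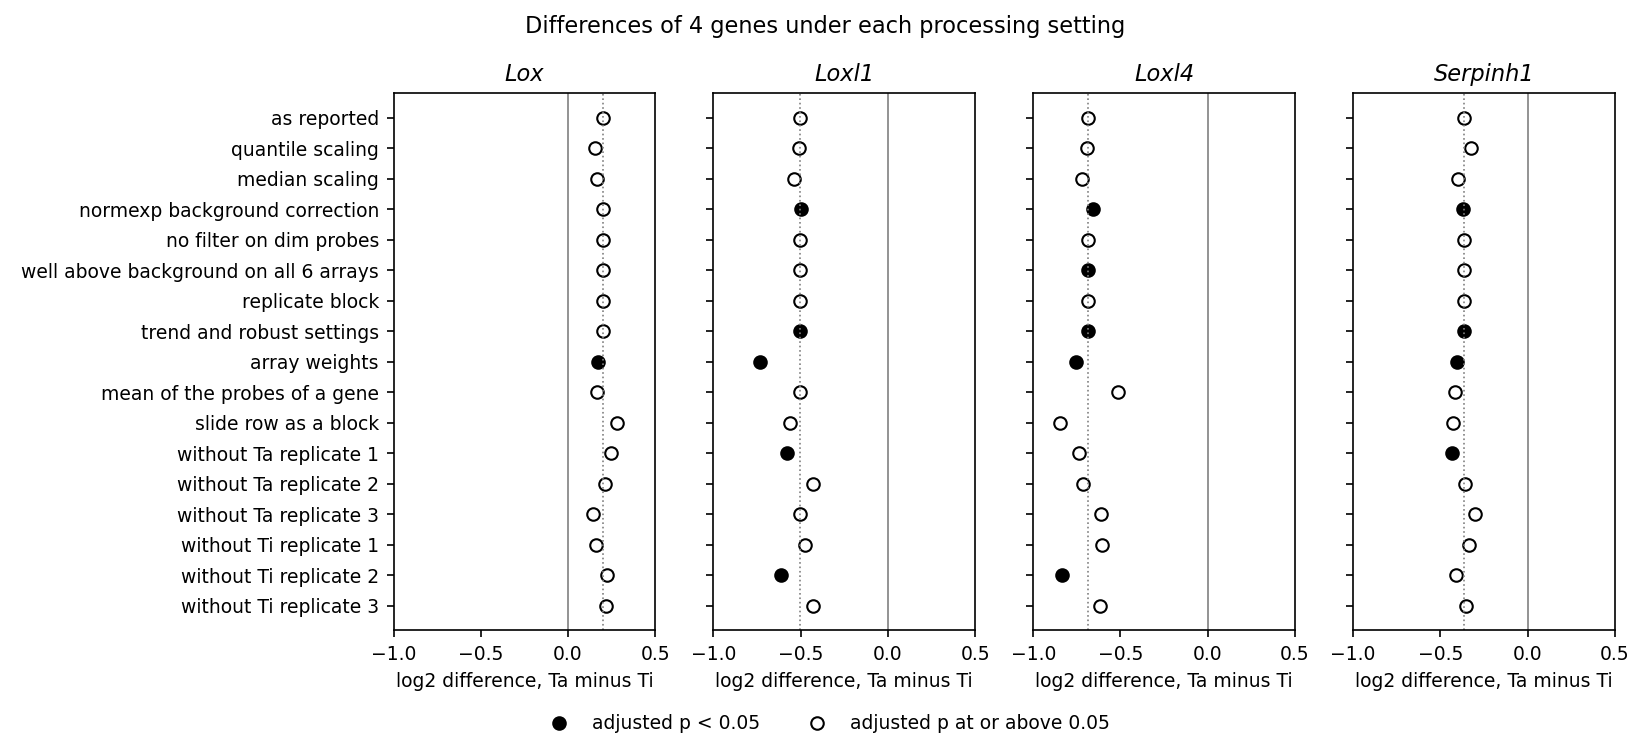
Log2 difference, Ta minus Ti, of Lox, Loxl1, Loxl4 and Serpinh1 under each processing setting; filled points passed an adjusted p of 0.05, the dotted line marks the reported value and the solid line 0. All points of Lox lie to the right of 0 and all points of the other genes to the left, and the filled points differ between settings.

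Among the substrates of these enzymes, 2 chains of collagen V fell on Ta. Of 11 genes for fibrillar and basement membrane collagen chains and elastin, 11 had a difference below 0, against 46.2% of all genes. Their median was -0.48, and 2 passed the test, beside 4.16% of all genes: Col5a1 (difference -0.54, SE 0.10, adjusted p = 0.0452) and Col5a2 (-0.48, SE 0.09, adjusted p = 0.0474), the chains of the collagen V that starts fibrils. Col5a1 read 13.49, 13.37 and 13.37 on Ta, against 14.09, 13.84 and 13.93 on Ti. With quantile scaling, or with the mean of a gene's probes, 1 of the 11 passed. Larger differences that did not pass were those of Col5a3, another collagen V chain, and Eln, elastin. Col5a3 differed by -0.65 (adjusted p = 0.11) with groups that overlapped. Eln had the largest difference of the list, -2.15 (adjusted p = 0.0757), without overlap. Col1a1, the main chain of bone collagen, had a difference of -0.07 (SE 0.12, adjusted p = 0.742), and its groups overlapped.

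The other procollagen hydroxylases and folding factors had 13 tested genes of 14, of which 0 passed higher, 1 passed lower and 12 did not pass, with a median difference of -0.05. Colgalt1, which adds galactose to hydroxylysine, fell to 11.07, 11.03 and 11.01 on Ta, against 11.57, 11.41 and 11.45 on Ti (difference -0.44, SE 0.08, adjusted p = 0.046). P4ha1, a catalytic subunit alternative to P4ha2, differed by 0.01 (adjusted p = 0.93), and P4hb, the subunit both share, by 0.17 (adjusted p = 0.283). Of the genes for procollagen export and processing, 11 of 14 were tested and 0 passed, with a median of -0.23. An unadjusted p under 0.05 was found for 3 of the 11, against 30% of all genes.

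Among 11 genes for copper supply and for matrix partners of the lysyl oxidases, 0 passed higher and 2 passed lower. Fmod, fibromodulin, a collagen-binding proteoglycan that binds Lox, read 10.49, 9.99 and 9.71 on Ta, against 11.57, 11.53 and 11.40 on Ti (difference -1.44, SE 0.20, adjusted p = 0.0395). Thbs1, thrombospondin, read 11.77, 11.69 and 11.65 on Ta, against 12.40, 12.30 and 12.25 on Ti (difference -0.61, SE 0.08, adjusted p = 0.0395). In both the groups stood well apart, and the list's median was -0.06.

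Lox, Plod2 and P4ha2 are among the known targets of hypoxia-inducible factor, so 12 other genes it induces were read beside them. Of these, 2 rose and 0 fell, with a median of 0.28: Egln3, a prolyl hydroxylase that acts on the factor itself (difference 1.91, SE 0.35, adjusted p = 0.0466), and Slc2a1, a glucose transporter (0.76, SE 0.13, adjusted p = 0.0452). The 2 genes of the list below 0 were Ndrg1 at -0.65 (adjusted p = 0.216) and Car9 at -0.62 (adjusted p = 0.0656). Beside that median stand the differences of 0.20 for Lox, -0.21 for Plod2 and 0.07 for P4ha2. Every other gene of the set lay below 0, from -0.69 for Loxl4 to -0.07 for Loxl2. Those genes were not sorted by whether the factor induces them, so they are no group of genes outside its reach.

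Across these 5 lists, 58 of 62 genes were tested, and 2 passed higher and 5 lower, beside 4.16% of all genes in either direction. That share of all genes stands beside the count of each list as well. Without Ta replicate 1 there were 16, beside 16.3% of all genes, and without Ti replicate 2 there were 10, beside 8.09%. Without any other array, or with slide row as a block, 0 passed in the lists and 0 among all genes.

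**Figure D4:**
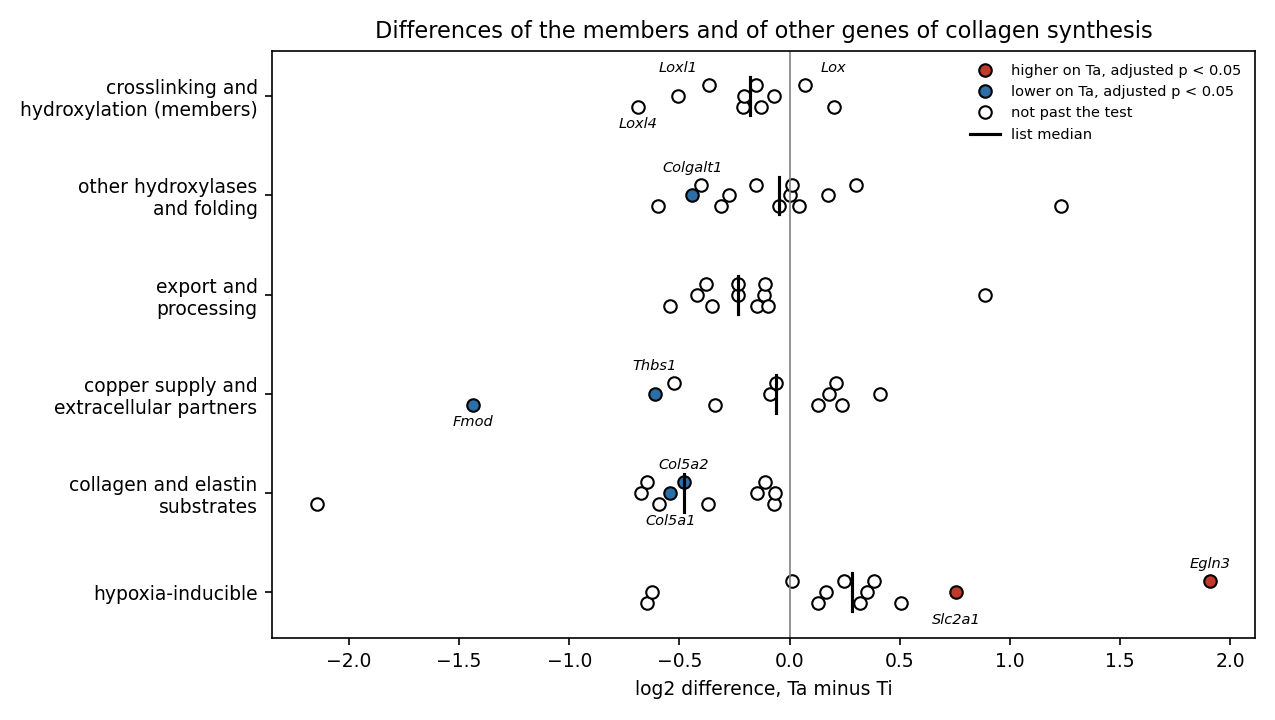
Log2 difference, Ta minus Ti, of each tested gene of the crosslinking and hydroxylation set and of the 5 lists around it; colour marks an adjusted p under 0.05 in the fit over all genes and the vertical bar the median of a list. The collagen and elastin substrates all lie left of 0, the set itself spreads on both sides between -0.69 and 0.20, and the called hypoxia-inducible genes lie to the right.

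Markers of stromal and other marrow cells were read on the same arrays. Of 10 stromal markers, 9 were well above background on all arrays, Lepr on none; Col1a1 and Col1a2 stand in this list and among the substrates. Thy1 was the 1 stromal marker that passed, higher on Ta (difference 0.67, adjusted p = 0.0436). The summed signal of the stromal markers overlapped between groups, from 148556 to 166655 on Ta and from 144708 to 160544 on Ti. Col1a1 and Col1a2, the brightest of these probes, weigh most in that sum, so it says little about the other stromal markers. Of those, Vcam1 lay higher (difference 0.67) and Eng lower (-0.37) on Ta without overlap, and neither passed the test. The 11 macrophage markers summed to 45071, 35508 and 25818 on Ta replicates 1, 2 and 3, against 57003, 48413 and 57361 on the Ti replicates. None passed the test (0 of 11), and 8 had an unadjusted p under 0.05, against 30% of all genes. Below 0 lay 10 of 11, against 46.2% of all genes, with a median difference of -1.24. No macrophage marker was at background on every array. Cd68, Cd14 and Aif1, the brightest of the macrophage probes, weigh most in the summed signal, and they did not move alike. Cd14, the only macrophage marker above 0, differed by 0.34 (adjusted p = 0.155) without overlap. Cd68 differed by -0.28 with overlap and Aif1 by -1.56 without overlap. The order of the arrays by the macrophage sum was that of Loxl4 and Serpinh1 but for an exchange of Ti replicates 1 and 3, and Ta replicate 1 was the nearest Ta array to Ti in all 3. The order within Ta, falling from replicate 1 to replicate 3, was also that of Loxl2, Plod1, Plod2, Plod3 and P4ha2. It was not that of Lox, Loxl1 or Loxl3. The macrophage signal's part in these differences was not tested, and in bulk RNA fewer cells of a type and less RNA per cell cannot be told apart.

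Of 6 mast cell markers, 4 were tested and passed, lower on Ta, with a summed signal of the tested genes of 227 to 316 on Ta and 976 to 1813 on Ti. Only Kit and Mcpt8 were well above background on all 6 arrays. Cma1 was so on 3 arrays, none of them Ta, and Cpa3 on 4, so both entered the test through Ti, where they are high, and their calls are no support. The other genes of that list, Ms4a2 and Tpsb2, were not tested, and Ms4a2 was above background on no array. Of 3 neutrophil markers tested, 2 passed, higher on Ta, with sums of 262 to 617 on Ta and 82.2 to 135 on Ti, and Elane and S100a9 were above background on no array. Endothelial markers summed to 155 to 221 on Ta and 231 to 311 on Ti, with 0 of 4 passing, 1 at an unadjusted p under 0.05 and Emcn above background on no array. The part of these cells in the differences of the 10 genes was not tested. Without Ta replicate 1, 7 of 11 macrophage, 2 of 4 endothelial and 4 of 4 mast cell markers passed, all lower, 3 of 3 neutrophil markers passed higher, and 3 of 9 stromal markers passed, 2 of them higher. Without Ti replicate 2, 0 of 11 macrophage, 0 of 4 endothelial, 3 of 4 mast cell, 3 of 3 neutrophil and 1 of 9 stromal markers passed. Of all genes, 16.3% passed without Ta replicate 1 and 8.09% without Ti replicate 2. When any of the other arrays was left out, 0 of these markers passed.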

How the data were processed

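Cy3 intensities of 6 one-colour arrays were used, 3 Ta and 3 Ti, grouped by the sample titles. Per the file headers, the authors' scanner software subtracted the background from each spot's intensity and removed spatial and multiplicative trends to give the processed signal, leaving the arrays unscaled against each other. Agilent Feature Extraction 12.0 and limma (no version) are the tools in the submitters' processing notes. The deposited value table equalled the processed signal in 100% of values. Values of Ta replicate 2 and Ti replicate 3 were rounded to 3 significant digits or fewer, and 93 of their gene names departed from the other files, so names were read from Ta replicate 1.

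The log2 processed signal was reduced by the array's 75th percentile over non-control spots, and the mean percentile added back. Outlier spots, 0.58% to 0.84% of an array, were dropped, and a probe's spots averaged. The filter asked for signal well above background on 3 or more arrays, which 25782 of 45598 probes met; 25774 had a value on each array and were tested. The brightest probe stood for a gene. Gene names came from a RefSeq table of GRCr8 for 31230 probes and from the file for 4903. The other 9465 probes had no gene name other than an identifier and kept their probe name. Each of these that was tested counts as a gene of its own in the 19704 genes and in every share of all genes. Array signal does not compare levels between probes, so no gene was ranked against another by level. Groups were compared with limma 3.58.1 in R 4.3.3, two-sided, with Benjamini-Hochberg adjustment over all genes, or over all probes where stated. SE is limma's moderated standard error. Intervals are at 95%, and the number of arrays limits the precision. The script was tested on simulated data.

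Named were all 10 genes of the set, up to 2 genes of each surrounding list with the largest difference among those past the threshold, and the 3 genes closest to Lox. Col1a1, Col5a3, Eln, P4ha1, P4hb, Ndrg1, Car9, Vcam1 and Eng were named after their values were seen. The set and the lists were chosen with earlier results of these data known. Alternatives were quantile and median scaling, normexp with an offset of 50, no filter or one on all 6 arrays, replicate number and slide row as blocks, trend and robust variance settings, array weights, the mean of a gene's probes, and leaving out each array. Of the lists, Mia2 and Pcolce2 had no probe under that name, and Colgalt2 and Tll2 were above background on no array. Genomic coordinates were not used here.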

Additional observations from a re-analysis of the deposited data

How the results depend on the processing

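The direction of none of the 10 genes reversed in 160 comparisons (10 genes under 16 alternatives): 143 stayed on their side of the threshold, above it, and 17 passed it (5 for Loxl1, 5 for Loxl4, 4 for Serpinh1 and 1 each for Lox, Loxl3 and Plod1). The adjusted p ran from 0.00128 to 0.199 for Loxl4, from 0.00129 to 0.237 for Loxl1, from 0.00233 to 0.236 for Serpinh1 and from 0.0435 to 0.463 for Lox. Against 0 of 10 genes and 0 of 15 probes as reported, the calls were 3 genes (Loxl1, Loxl4 and Serpinh1) and 4 probes with normexp background correction, the same 3 genes and 4 probes with trend and robust variance settings, 1 gene (Loxl4) and 1 probe with the filter on all 6 arrays, and 6 genes and 7 probes with array weights. They ranged from 0 to 2 genes and from 0 to 3 probes with 1 array left out at a time. The background moved with them: of all genes, against 819 as reported, normexp passed 2588, the trend and robust variance model 2101, array weights 10202 (51.8%), testing unfiltered probes 0 (5849 at an unadjusted p under 0.05), the slide row term 0, and leaving out an array from 0 to 3216. Of the 58 genes of the surrounding lists, against 7 as reported, normexp passed 17, the trend and robust variance model 14, array weights 44, unfiltered probes 0, the slide row term 0, and leaving out an array from 0 to 16. The cause of these shifts was not tested, except that leaving out the filter raises the number of genes tested to 35130 and leaving out an array lowers the number of samples.

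With the replicate number as a block, 8 genes of all (0.0406%) passed, 0 of the 10 genes of the set, 0 of their 15 probes and 0 of the 58 surrounding genes. The labels share only a number. Deviations from the group means of same-numbered cultures correlated across genes at 0.06, 0.13 and -0.18. Differently numbered cultures were not compared, so these values cannot show whether the numbers pair the samples.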
